A study of Mus musculus with 6 samples.

Results

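The library labelled miR-124 mimic was compared with the library that received control RNAs, in cultured mouse Müller glia profiled by single-cell RNA sequencing. Müller glia are the radial glia of the retina, and the cultures were grown from papain-dissociated retinas in neurobasal medium with fetal bovine serum, N2, L-glutamine and EGF. By the labels, one culture was transfected by lipofection (Lipofectamine) with a synthetic miR-124 mimic, and it is called the miR-124-labelled library here. The control culture received a control mimic and a control antagomiR (a miRNA inhibitor), and each RNA was used at 500 nM. The series holds 6 libraries, 1 for each treatment, made with the 10x Genomics V2 system, and no source used here gives the strain, age or sex of the mice. Members were the cells of these 2 libraries with 500 or more detected genes and no more than 10% of UMIs (unique molecular identifiers, counted RNA molecules) from mitochondrial genes. They numbered 3598 in the miR-124-labelled library and 4521 in the control, of 23258 cells that passed the same filter in the whole series. With 1 library a side, no difference below has a replicate check, no test of the treatment was possible, and all intervals are 95% intervals of counting error only.

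miRNAs bind mRNAs mainly through their seed, the bases near the 5′ end, and lower the level or the translation of mRNAs with matching sites in the 3′ UTR. miR-124 is a miRNA of neurons that glia express little of. Among its best studied targets are Ptbp1, a splicing repressor that holds down its neuronal relative Ptbp2, and Ctdsp1, a phosphatase that works with the repressor REST to keep neuronal genes silent outside neurons. The study asked whether miRNA mimics and a let-7 antagomiR, alone or combined, move Müller glia towards retinal progenitors or neurons.

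Sites were searched in annotated 3′ UTRs of the GENCODE vM21 mouse annotation (GRCm38). The motif for miR-124 was GTGCCTT, the match to bases 2 to 8 of the seed of the 3p arm, which was assumed because the labels do not name the arm. It occurred on the transcribed strand in 13.0% of 20325 genes with a usable UTR, and 2.74% had the 8-letter form with a following A. A UTR counted as holding a site if it had this motif, with or without the following A, or the match to bases 2 to 7 followed by A, and 20.02% held at least 1 of these forms. To show what these sites look like, 6 windows of 30 bases are printed, each ending in the 8-letter site in capitals. They belong to the 6 genes with such a site whose highest ratio over 4 cell classes was the lowest, so their low ratios chose them and are no evidence of their own.
Vat1, 3′ UTR, chr11:101459477-101459506, minus strand: tgaggcctttggatttgtctcaGTGCCTTA
Myadm, 3′ UTR, chr7:3298120-3298149, plus strand: tgcctgcctgcctgccttagctGTGCCTTA
Zcchc24, 3′ UTR, chr14:25711718-25711747, minus strand: cctcggggtggcattccgttgtGTGCCTTA
Myh9, 3′ UTR, chr15:77760672-77760701, minus strand: cccctttttttatataatacaaGTGCCTTA
Ptbp1, 3′ UTR, chr10:79863510-79863539, plus strand: gccccaaacatagccgctttctGTGCCTTA
Fam104a, 3′ UTR, chr11:113662177-113662206, minus strand: ctgccatatagataaagaggaaGTGCCTTA

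Sites of 3 other miRNAs were read in the same way, because let-7 and miR-25 are named in other labels of the series and miR-9-5p in none. Their mature forms (RefSeq, GRCm38.p6) have the seed, bases 2 to 8, in capitals, and no 2 of them share a seed.
mmu-let-7g-5p, chr9:106178846-106178867, plus strand: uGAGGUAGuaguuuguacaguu
mmu-miR-25-3p, chr5:138165332-138165353, minus strand: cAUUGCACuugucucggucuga
mmu-miR-9-5p, chr3:88215613-88215635, plus strand: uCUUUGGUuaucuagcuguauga
The search motifs were CTACCTC for let-7, found in 9.15% of UTRs, GTGCAAT for miR-25, found in 6.67%, and ACCAAAG for miR-9-5p, found in 12.4%. With the match to bases 2 to 7 followed by A counted in, as for miR-124, the shares were 15.1% for let-7, 12.9% for miR-25 and 20.5% for miR-9-5p.

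The miR-124-labelled library was the shallower one, with 15059804 UMIs against 23124374 in the control, and median depths of 3519.5 UMIs per kept cell under the miR-124 label and 4481 in the control. The 2 libraries shared 25 cell barcodes, 0.695% of the kept cells of the miR-124-labelled library. Clusters were formed from the cells of all 6 libraries and named "-like" from marker genes. The culture labelled Müller glia was a mixture in both libraries.

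Müller-like cells made up 32.2% of the miR-124-labelled library (1157 cells, interval 30.6% to 33.7%) and 22.6% of the control (1023 cells, 21.4% to 23.9%). Mesenchymal-like cells, with collagen genes such as Col1a1 and Col3a1, made up 36.6% under the miR-124 label and 49.6% in the control. Astrocyte-like cells, with S100b and Gfap, made up 8.75% under the miR-124 label and 6.13% in the control. Pericyte- or smooth-muscle-like cells, with Rgs5 and Acta2, made up 9.70% under the miR-124 label and 8.69% in the control. Microglia- or macrophage-like cells made up 2.95% under the miR-124 label and 2.72% in the control. Cells of a neuron- or progenitor-like cluster made up 5.92% (213 cells) under the miR-124 label and 0.553% (25 cells) in the control, too few there for its genes to be compared. The cells of this class were also rich in Müller glia markers. The 20 Müller glia markers summed to 5957 CPM under the miR-124 label and 7356 CPM in the control. The 18 neuron and progenitor markers summed to 2533 CPM under the miR-124 label and 1822 CPM in the control. At a Leiden resolution of 0.3 this class had 1.67% under the miR-124 label and 0.0221% in the control, and clusters formed from these 2 libraries alone gave 0% in each. Unnamed clusters held 3.95% of the miR-124-labelled library and 9.67% of the control.

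Müller-like cells lay close to the mitochondrial limit, with medians of 7.57% mitochondrial UMIs under the miR-124 label and 7.66% in the control. Mesenchymal-like cells had 3.04% under the miR-124 label and 3.47% in the control. With limits of 1000 genes and 5% mitochondrial UMIs, 83 Müller-like cells were left under the miR-124 label and 74 in the control, 4.13% of the miR-124-labelled cells that passed and 2.76% of the control cells. The size of the Müller-like share thus moves with that limit in each library.

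**Figure D1:**
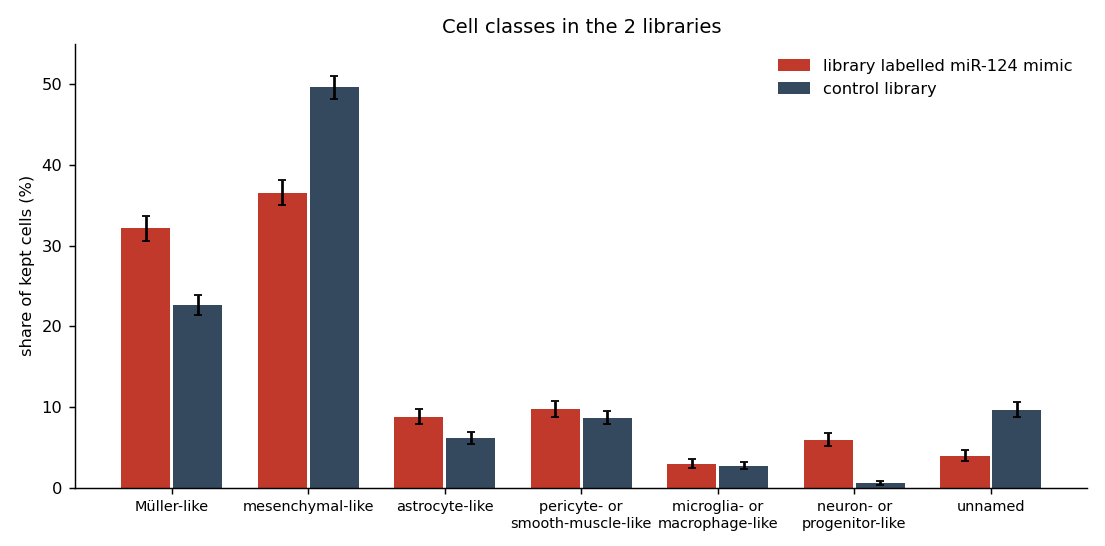
Share of kept cells (%) in each cell class, with red bars for the miR-124-labelled library and dark bars for the control library; error bars are exact 95% binomial intervals. The red bar is the higher one for Müller-like cells (32.2% against 22.6%) and the lower one for mesenchymal-like cells (36.6% against 49.6%).

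The Müller-like cells of the 2 libraries came from different clusters. A cluster led by Rlbp1, Gfap, Cspg5 and Car14 held 673 Müller-like cells of the miR-124-labelled library, 58.2% of its class, and 6 of the control, 0.587%. Outside these libraries it was held mainly by the library labelled with the triple combination (1738 cells), whose label also names miR-124 mimic. With 1 library per treatment, a cell type, a state that goes with the treatment and a difference between libraries cannot be told apart. A cluster led by Lcn2, an acute-phase protein of reactive glia, held 440 cells of the miR-124-labelled library (38% of the class) and 887 of the control (86.7%). A smaller cluster led by Lcn2 and Akr1c18 held 44 cells under the miR-124 label and 130 in the control. The Lcn2-led cluster had at least 50 cells in each library, so the libraries were also compared within it. Clusters were formed on the same expression values, so cells that differed most between the libraries could fall outside it. Ratios within it can be smaller than in the class for that reason alone, so they are no independent check. Median depths in the class were 2603 UMIs per cell in the miR-124-labelled library and 3718 in the control.

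Ratios were taken from UMIs summed over cells and scaled to CPM (counts per 1000000 UMIs of the class), as log2 of CPM + 5, for genes with at least 20 CPM in either library. Of 6622 genes in Müller-like cells, the miR-124-labelled library had 183 (2.76%) higher by 2-fold or more and 120 (1.81%) lower by as much. With the limits of 1000 genes and 5% mitochondrial UMIs the counts were 461 higher and 430 lower. These limits left 83 cells under the miR-124 label and 74 in the control, so counting error alone can carry low genes past 2-fold. Among genes at 50 CPM or more 112 were higher. Each of these settings changes the genes measured, so their counts cannot be set against the shares above. Over all kept cells, under the main settings, 81 genes were higher (1.25%) and 11 lower (0.17%). In the Lcn2-led cluster the counts were 27 of 6491 genes higher (0.416%) and 13 lower (0.2%). Without the Rlbp1-led cluster, and over its own set of measured genes, the whole class had 25 higher and 12 lower genes. Most large differences in the class thus went with that cluster.

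Gfap, the intermediate filament of astrocytes and reactive Müller glia, was among the 12 genes with the highest ratios in Müller-like cells. It stood at 506 CPM (interval 482 to 531) in the miR-124-labelled library and 58.4 CPM (51.0 to 66.5) in the control, and within the Lcn2-led cluster at 108 CPM under the miR-124 label against 59.0 CPM in the control. Car14, a carbonic anhydrase of Müller glia, had 90.6 CPM under the miR-124 label against 8.78 CPM in control cells of the class but 9.97 CPM under the miR-124 label against 8.34 CPM in control cells of the Lcn2-led cluster, where the interval of the fold, 0.552 to 2.44, holds 1. Gfap and Car14 are leading genes of the Rlbp1-led cluster. Their ratios in the class and the uneven shares of that cluster are thus not separate results.

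Nptx1, a pentraxin of excitatory synapses and also among the 12, had 168 UMIs (51.4 CPM) in the miR-124-labelled library and 3 UMIs (0.775 CPM) in the control, a fold of 66.4 (22.3 to 325). Of its 168 UMIs, 161 came from the Rlbp1-led cluster, and in the Lcn2-led cluster Nptx1 had 4.98 CPM under the miR-124 label against 0.618 CPM in the control. Cacng4, an auxiliary subunit of AMPA receptors and calcium channels, stood at 194 CPM under the miR-124 label against 17.3 CPM in control cells of the class and at 83.1 CPM under the miR-124 label against 17.9 CPM in control cells of the Lcn2-led cluster, so it was at least 2-fold higher in both. Scg2, a granin of secretory vesicles, had 46.5 CPM under the miR-124 label against 3.62 CPM in control cells of the class and 10.8 CPM under the miR-124 label against 2.78 CPM in control cells of the Lcn2-led cluster. Pcdh15, a cadherin of hair cells and photoreceptors, had 51.1 CPM under the miR-124 label against 2.07 CPM in control cells of the class and 9.14 CPM under the miR-124 label against 2.16 CPM in control cells of the Lcn2-led cluster. Other genes with high ratios were Thrsp, Cd24a, Aldoc, Elmod1 and Tox2, and of these Thrsp, a regulator of lipid synthesis, had 681 CPM under the miR-124 label against 72.3 CPM in control cells of the class and 145 CPM under the miR-124 label against 59.0 CPM in control cells of the Lcn2-led cluster. Aldoc, the aldolase of astroglia, had 300.0 CPM under the miR-124 label against 50.4 CPM in control cells of the class and 123.7 CPM under the miR-124 label against 38.6 CPM in control cells of the Lcn2-led cluster.

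Igfbp2, which binds insulin-like growth factors, was among the 12 genes with the lowest ratios and stood at 259.6 CPM (242 to 278) in the miR-124-labelled library and 1063 CPM (1031 to 1096) in the control. Nupr1, a stress-induced transcriptional regulator, stood at 587 CPM under the miR-124 label against 2303 CPM in the control. Ctsd, the lysosomal protease cathepsin D, stood at 1535 CPM under the miR-124 label against 5501 CPM in the control. These 3 genes were also lower within the Lcn2-led cluster, at 576 CPM under the miR-124 label against 1095 CPM in the control for Igfbp2, 992 CPM under the miR-124 label against 2205 CPM in the control for Nupr1 and 2613 CPM under the miR-124 label against 5240 CPM in the control for Ctsd. Gpnmb, a glycoprotein of lysosomes and phagocytic cells, had 42.9 CPM under the miR-124 label against 177 CPM in control cells of the class and 73.1 CPM under the miR-124 label against 164 CPM in control cells of the Lcn2-led cluster. Sfrp1, a secreted Wnt antagonist, had 47.5 CPM under the miR-124 label against 179 CPM in control cells of the class and 102 CPM under the miR-124 label against 194 CPM in control cells of the Lcn2-led cluster. Under the stricter limits on cells, the log2 ratio of Sfrp1 was 0.090 and that of Cd24a, among the high genes, -0.32. Grem1, a BMP antagonist, had 26.9 CPM under the miR-124 label against 102 CPM in the control, and in the Lcn2-led cluster 48.2 CPM under the miR-124 label against 111 CPM in the control. The other 6 were Fscn1, Alcam, Tinagl1, Mme, Podn and Akr1c18, with log2 ratios of -1.83 to -1.63 in the class. All 12 also had ratios below 0 in the Lcn2-led cluster, with Nupr1 the lowest and Akr1c18, at -0.53, the nearest to 0. Nupr1 and Mme are among the leading genes of the Lcn2-led cluster and Akr1c18 of the smaller one. Their ratios in the class and the uneven shares of these clusters are thus not separate results.

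**Figure D2:**
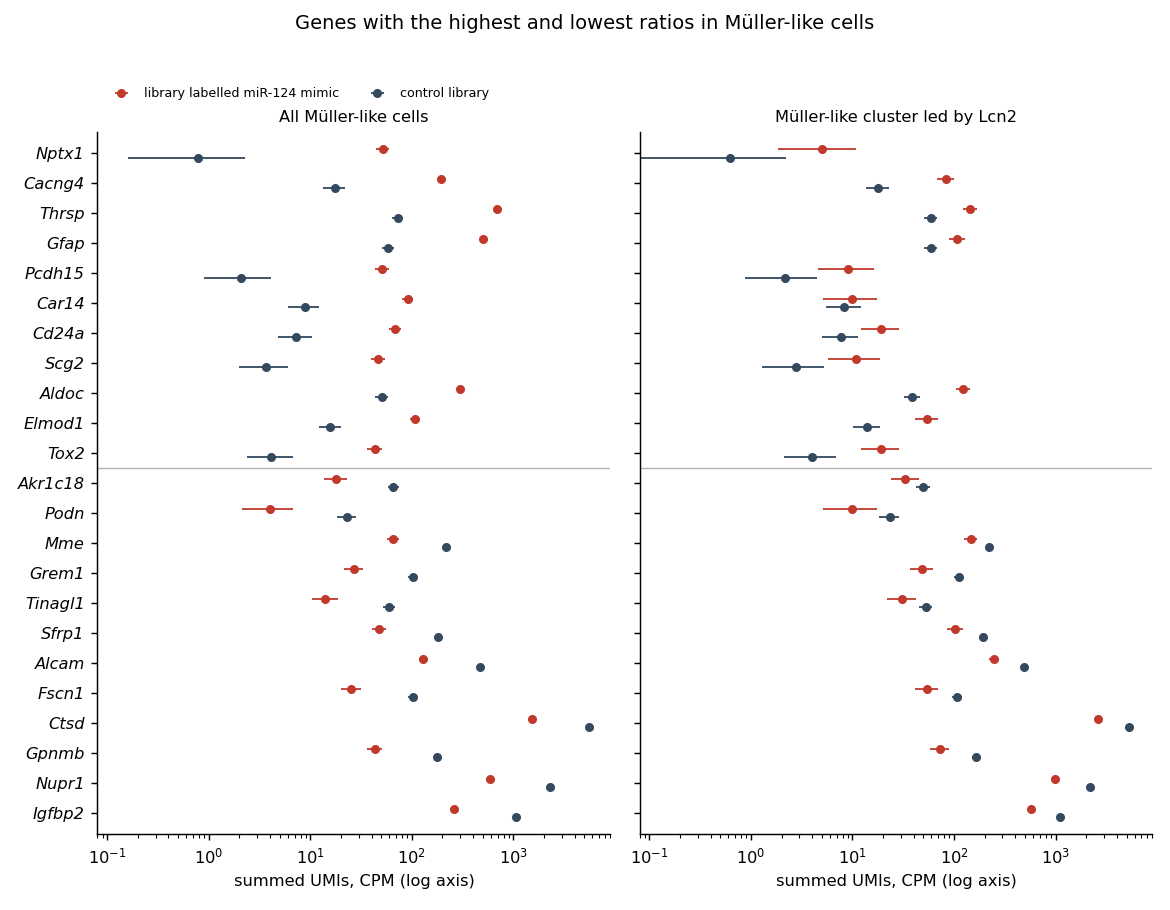
Level of genes with the highest and lowest ratios in Müller-like cells (CPM, log axis), in all Müller-like cells (left) and in the Lcn2-led cluster (right); red points are the miR-124-labelled library, dark points the control, and bars exact 95% Poisson intervals. The points of a gene lie closer together on the right, as for Car14 (90.6 CPM under the miR-124 label against 8.78 CPM in the control on the left, 9.97 CPM under the miR-124 label against 8.34 CPM in the control on the right).

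Within the Lcn2-led cluster the 4 genes with the highest ratios were AI593442, Crabp1, Cacng4 and Lix1. Crabp1, a cytoplasmic retinoic acid binding protein, stood at 54.8 CPM under the miR-124 label against 10.5 CPM in the control. AI593442 had 28.2 CPM under the miR-124 label against 1.85 CPM in the control. Lix1 had 20.8 CPM under the miR-124 label against 1.85 CPM in the control. All 3 were lower in the Rlbp1-led cells of the miR-124-labelled library than in its Lcn2-led cells, at 4.69 CPM for Crabp1, 7.29 CPM for AI593442 and 1.56 CPM for Lix1. Among the lowest were Myadm, Pcbd2 and Abhd11os. Myadm, a membrane protein of cell spreading, had 4.98 CPM under the miR-124 label against 28.4 CPM in the control, a fold of 0.175 (0.0628 to 0.397). Sites lay on both sides, with an 8-letter miR-124 site in Myadm, printed above, but also in AI593442, and a miR-124 site in Lix1.

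Lists of genes chosen for this tissue and treatment were read by their counts and medians. A listed gene was measured if either library reached 20 CPM. Genes high in a single library thus entered and genes low in both did not, which moves counts and medians away from 0. Over all 6622 genes measured in Müller-like cells the median log2 ratio was 0.06, with 8.82% at least 1.5-fold higher and 7.1% at least 1.5-fold lower. In the Lcn2-led cluster it was 0.02, with 2.94% and 2.99%.

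Genes of Müller glia homeostasis were higher in the class. Of 20 measured, 13 were at least 1.5-fold higher and 0 lower, with a median of 0.80. Rlbp1, which carries retinoids of the visual cycle, stood at 451 CPM in the miR-124-labelled library and 113 CPM in the control. Glul, the glutamine synthetase that recycles glutamate, stood at 347 CPM under the miR-124 label against 114 CPM in the control. Within the Lcn2-led cluster Rlbp1 had 117 CPM under the miR-124 label against 104 CPM in the control and Glul 143 CPM under the miR-124 label against 109.6 CPM in the control, 3 of 17 listed genes were at least 1.5-fold higher, and the median was 0.16. Some of these genes also served to name the clusters.

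Proneural and progenitor genes had a median of 0.81 in the class, with 6 of 10 at least 1.5-fold higher and 0 lower, and of 0.14 over 9 genes in the Lcn2-led cluster, where 1 was higher. Hes6, a helix-loop-helix factor of differentiating neural progenitors, stood at 146 CPM under the miR-124 label against 38.5 CPM in control cells of the class and at 39.0 CPM under the miR-124 label against 36.7 CPM in control cells of the Lcn2-led cluster. Notch pathway genes had medians of 0.91 and -0.05. Hes5, a Notch effector of radial glia, had 31.2 CPM under the miR-124 label against 2.58 CPM in control cells of the class and 6.64 CPM under the miR-124 label against 2.78 CPM in control cells of the Lcn2-led cluster. Hes1, a related effector, had 72.2 CPM under the miR-124 label against 35.9 CPM in the control. Hes1 was as far apart within the Lcn2-led cluster, at 92.2 CPM under the miR-124 label against 42.0 CPM in the control. The Id genes, inhibitors of proneural factors, included Id2 at 192 CPM under the miR-124 label against 34.9 CPM in control cells of the class. In the Lcn2-led cluster Id2 had 64.0 CPM under the miR-124 label against 33.7 CPM in the control. Id1 and Id3 were less than 1.5-fold higher in the class. Id1 stood at 213 CPM under the miR-124 label against 182 CPM in the control. Id3 stood at 416 CPM under the miR-124 label against 281 CPM in the control. Sox2 and Sox9, transcription factors of retinal glia and progenitors, stood at 238 CPM under the miR-124 label against 153 CPM in the control for Sox2 and at 258 CPM under the miR-124 label against 192 CPM in the control for Sox9 in the class. Within the Lcn2-led cluster Sox2 had 168 CPM under the miR-124 label against 158 CPM in the control and Sox9 256 CPM under the miR-124 label against 195 CPM in the control.

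Of 18 neuronal genes 8 were measured, 5 of them at least 1.5-fold higher and 1 lower, with a median of 1.24 in the class and 0.33 in the Lcn2-led cluster. In the class Nptx1 (0.775 CPM in the control) and Cacng4 (17.3 CPM in the control) passed 20 CPM only through the miR-124-labelled library. The count and the median of the class thus lean to the high side. The lower gene was Stmn2, a tubulin-binding protein of growing axons, at 298 CPM under the miR-124 label against 574 CPM in control cells of the class but 603 CPM under the miR-124 label against 536 CPM in control cells of the Lcn2-led cluster. Tubb3, the neuronal tubulin, had 12.2 CPM under the miR-124 label against 12.7 CPM in the control. Dcx, a microtubule protein of young neurons, had 3 UMIs under the miR-124 label and 1 in the control. None of 16 cell cycle genes reached 20 CPM in Müller-like cells, and Mki67, the proliferation marker, had 5 UMIs under the miR-124 label and 11 in the control. Ccnd1 and Ccnd2, the D cyclins that drive entry into the cycle, stood at 463 CPM under the miR-124 label against 1345 CPM in the control for Ccnd1 and at 491 CPM under the miR-124 label against 1416 CPM in the control for Ccnd2. Both were also lower in the Lcn2-led cluster, at 838 CPM under the miR-124 label against 1378 CPM in the control for Ccnd1 and at 763 CPM under the miR-124 label against 1430 CPM in the control for Ccnd2.

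Actin and adhesion genes were lower in the class, with 12 of 18 at least 1.5-fold lower, 0 higher and a median of -0.78. Tpm1, an actin-binding tropomyosin, had 1061 CPM under the miR-124 label against 2316 CPM in the control. Tpm1 stood at 2026 CPM under the miR-124 label against 2304 CPM in control cells of the Lcn2-led cluster, where 0 of 18 genes passed 1.5-fold and the median was -0.13. Matrix and collagen genes had medians of -0.80 and -0.19, with 8 and 2 of 11 at least 1.5-fold lower. Col8a1, a short-chain collagen, stood at 85.4 CPM under the miR-124 label against 253 CPM in control cells of the class and at 162 CPM under the miR-124 label against 259 CPM in control cells of the Lcn2-led cluster. Markers of pericytes and smooth muscle, which include contractile genes, summed to 1614 CPM under the miR-124 label against 3272 CPM in control Müller-like cells, and their part in the lower actin genes was not tested. Of those markers Kcnj8 and Higd1b were at 0 in both libraries.

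Among 15 reactive gliosis genes, 8 passed 1.5-fold on the low side and 2 on the high side in the class, with a median of -0.61. Gfap and Socs3, a feedback inhibitor of cytokine signalling, were the higher ones, Socs3 at 297 CPM under the miR-124 label against 181 CPM in control cells of the class and 343 CPM under the miR-124 label against 199 CPM in control cells of the Lcn2-led cluster. Lcn2 had 447 CPM under the miR-124 label against 994 CPM in control cells of the class and 739 CPM under the miR-124 label against 719 CPM in control cells of the Lcn2-led cluster.

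Immediate early and AP-1 genes, which respond within minutes to stimulation and also to cell dissociation, had a median of 0.65 in the class and 0.66 in the cluster, with 11 of 17 and 9 of 16 genes at least 1.5-fold higher. Zfp36, which destabilises cytokine mRNAs, stood at 209 CPM under the miR-124 label against 86.3 CPM in control cells of the class and 191 CPM under the miR-124 label against 97.9 CPM in control cells of the cluster. Atf3, a stress-induced transcription factor, stood at 34.9 CPM under the miR-124 label against 8.27 CPM in control cells of the class and at 24.9 CPM under the miR-124 label against 9.57 CPM in control cells of the cluster. Targets of p53 had medians of -0.43 and -0.38. Cdkn1a, the cell cycle inhibitor p21, had 524 CPM under the miR-124 label against 815 CPM in control cells of the class and 562 CPM under the miR-124 label against 827 CPM in control cells of the cluster. Phlda3, an inhibitor of Akt, had 156 CPM under the miR-124 label against 414 CPM in control cells of the class and 198 CPM under the miR-124 label against 397 CPM in control cells of the cluster. Lysosomal genes, led by Ctsd and Gpnmb, had medians of -0.51 and -0.39, with 0 of 14 higher than 1.5-fold in either. Interferon response genes had medians of -0.88 in the class and -0.48 in the cluster over 6 genes, among them Ifitm3, a restriction factor of viral entry, at 126 CPM under the miR-124 label against 359.6 CPM in control cells of the class and 191 CPM under the miR-124 label against 318 CPM in control cells of the cluster. Each treatment has 1 library, so handling and treatment cannot be told apart.

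Other lists lay nearer to all genes in Müller-like cells, with medians of -0.08 for 14 cholesterol synthesis genes, 0.11 for 12 glycolysis and hypoxia genes and -0.06 for 13 genes of the integrated stress and unfolded protein responses. Genes described elsewhere as let-7 targets had a median of 0.13 over 10 genes, with 4 at least 1.5-fold higher and 2 lower, the lower ones being Ccnd1 and Ccnd2, and -0.26 in the Lcn2-led cluster. Described miR-25 targets had 0.31 over 15 genes in the class and -0.01 in the cluster.

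**Figure D3:**
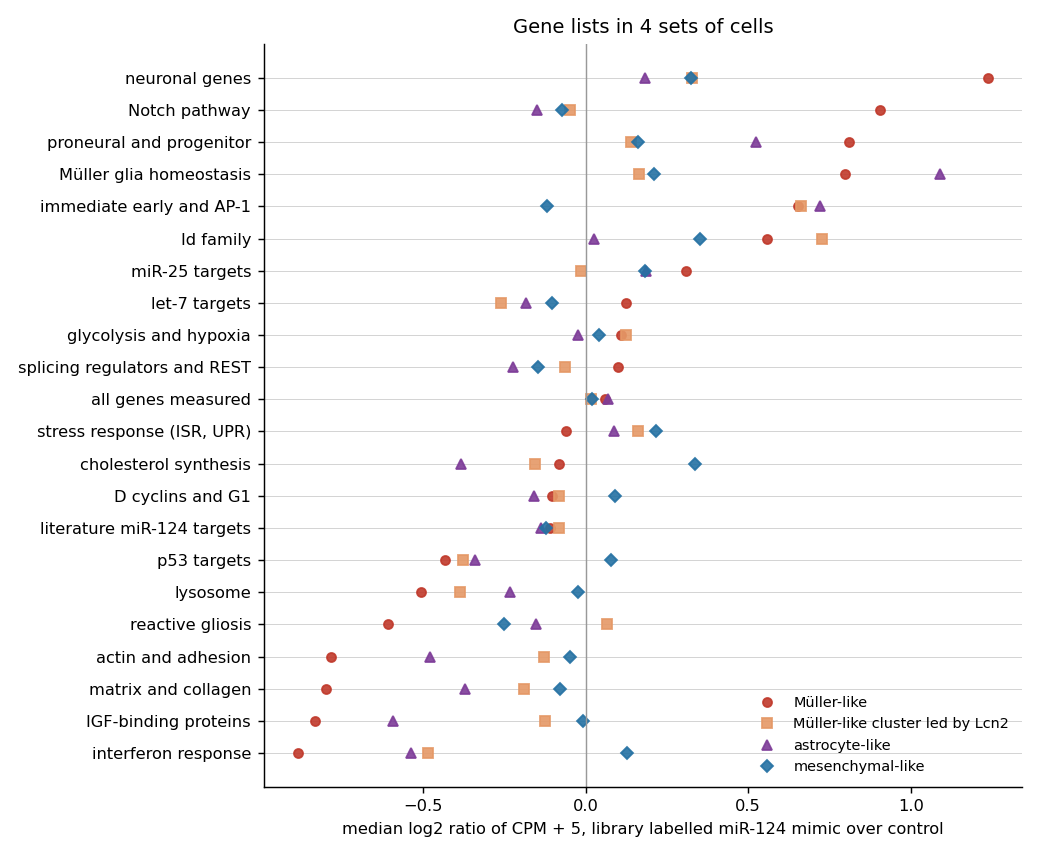
Median log2 ratio (CPM + 5, miR-124-labelled library over control) of each gene list in Müller-like, Lcn2-led, astrocyte-like and mesenchymal-like cells, with the median of all measured genes for comparison. Circles (Müller-like) lie far from squares (Lcn2-led cluster) for Müller glia homeostasis (0.80 and 0.16) and near them for immediate early genes (0.65 and 0.66).

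Genes described elsewhere as miR-124 targets were read as a list of 35, of which 28 were measured in Müller-like cells. At least 1.5-fold, 5 were lower and 2 higher, with a median of -0.11 against 0.06 for all genes, and in the Lcn2-led cluster 1 was lower and 0 higher, with a median of -0.08 against 0.02. Itgb1, the integrin beta 1 chain, stood in the class at 187 CPM (173 to 202) under the miR-124 label and 466 CPM (445 to 488) in the control, and at 319 CPM under the miR-124 label against 463 CPM in control cells of the Lcn2-led cluster. Ctdsp1 had 14.7 CPM under the miR-124 label against 34.9 CPM in control cells of the class and 19.9 CPM under the miR-124 label against 36.4 CPM in control cells of the cluster. Lamc1, the laminin gamma 1 chain, had 28.8 CPM under the miR-124 label against 58.6 CPM in control cells of the class and 52.3 CPM under the miR-124 label against 58.7 CPM in control cells of the cluster. Egr1, an immediate early gene on the same list, and Notch1, the receptor, were the higher ones, Notch1 at 271 CPM under the miR-124 label against 143 CPM in control cells of the class and 179 CPM under the miR-124 label against 154 CPM in control cells of the Lcn2-led cluster.

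Ptbp1 and Ptbp2 lay on opposite sides. Ptbp1 stood at 34.9 CPM (28.8 to 41.9) in the miR-124-labelled library and 49.9 CPM (43.1 to 57.4) in the control, a fold of 0.7 (0.550 to 0.887), and in the Lcn2-led cluster at 34.1 CPM under the miR-124 label against 50.02 CPM in the control. Ptbp2 stood at 109 CPM (98.2 to 121) under the miR-124 label and 47.8 CPM (41.2 to 55.2) in the control, a fold of 2.29 (1.91 to 2.75), and its UTR also holds an 8-letter miR-124 site. In the Lcn2-led cluster Ptbp2 had 61.5 CPM under the miR-124 label against 49.1 CPM in the control, with an interval of the fold from 0.937 to 1.66. Rest had 84.5 CPM under the miR-124 label against 78.3 CPM in the control, with an interval of the fold from 0.914 to 1.27.

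Over all genes with a usable UTR, those with a miR-124 site had log2 ratios lower by 0.087 in Müller-like cells than those without (-0.087, counting interval -0.096 to -0.079; 1711 and 4757 genes), after UTR length, UTR GC content and mean expression were fitted in the same model. For the 8-letter site the difference was -0.14 (-0.16 to -0.12; 256 genes). By form, the mean log2 ratio left after these 3 measures were fitted was -0.13 for the 8-letter site, -0.073 over 853 genes with the match to bases 2 to 8, 0.003 over 602 genes with only the match to bases 2 to 7 followed by A and 0.020 without a site. The unadjusted medians over all genes were close, 0.05 with a site and 0.06 without. With the genes in 3 groups of like size by UTR length, they were -0.062 with a site and 0.006 without in the shortest, 0.018 with and 0.078 without in the middle and 0.090 with and 0.140 without in the longest. For the 8-letter site the unadjusted medians were -0.009 with it and 0.064 without. Without the Rlbp1-led cluster the adjusted difference for all sites was -0.034. In the Lcn2-led cluster the adjusted difference was -0.035 (-0.048 to -0.023), and -0.055 (-0.082 to -0.028) for the 8-letter site, with medians of -0.04 with a site and 0.03 without.

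The difference was not alike in all cells. In astrocyte-like cells miR-124 site genes stood at -0.080 (-0.095 to -0.064), near the value of Müller-like cells. In pericyte- or smooth-muscle-like cells the difference was -0.022 (-0.034 to -0.011) and in mesenchymal-like cells -0.018 (-0.024 to -0.011), where the 8-letter site gave 0.009 (-0.004 to 0.022). In microglia- or macrophage-like cells it was 0.007 (-0.018 to 0.032). Genes are not replicates, and the intervals hold neither the spread between genes nor that between cultures.

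Sites of other miRNAs also went with the ratios. Genes with a let-7 site stood higher in Müller-like cells by 0.11 (0.10 to 0.12; 1148 genes), in the Lcn2-led cluster by 0.066 (0.051 to 0.080) and in astrocyte-like cells by 0.061 (0.043 to 0.079). The label of this library names no let-7 inhibitor. A correct label and a mix-up of labels or libraries cannot be told apart from these files, so each ratio is that of the labelled libraries. Genes with a miR-9-5p site, a miRNA that no label names, stood at -0.062 (-0.071 to -0.052) in Müller-like cells. Within the Lcn2-led cluster they stood at -0.035 (-0.048 to -0.022), which is the value of miR-124 sites of any form there. In astrocyte-like cells they stood at -0.015 (-0.031 to 0.001). The 8-letter sites in the Lcn2-led cluster gave -0.029 (-0.054 to -0.004) for miR-9-5p and -0.055 for miR-124. In Müller-like cells they gave -0.068 (-0.085 to -0.050) for miR-9-5p and -0.138 for miR-124. For the 8-letter sites in astrocyte-like cells the difference was -0.072 (-0.102 to -0.042) for miR-9-5p and -0.103 (-0.138 to -0.068) for miR-124. Genes with a miR-25 site stood at 0.027 (0.017 to 0.037) in Müller-like cells. Over all 14545 motifs of 7 letters that occurred in at least 100 measured UTRs, the corresponding differences in Müller-like cells ran from -0.040 at the 5th percentile to 0.049 at the 95th. The motif GTGCCTT stood at -0.12 and the let-7 motif at 0.11 on that scale. In mesenchymal-like cells both lay within the range of -0.021 to 0.026, at -0.010 and 0.015. In pericyte- or smooth-muscle-like cells both lay just outside the range of -0.023 to 0.025, at -0.025 and 0.031.

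**Figure D4:**
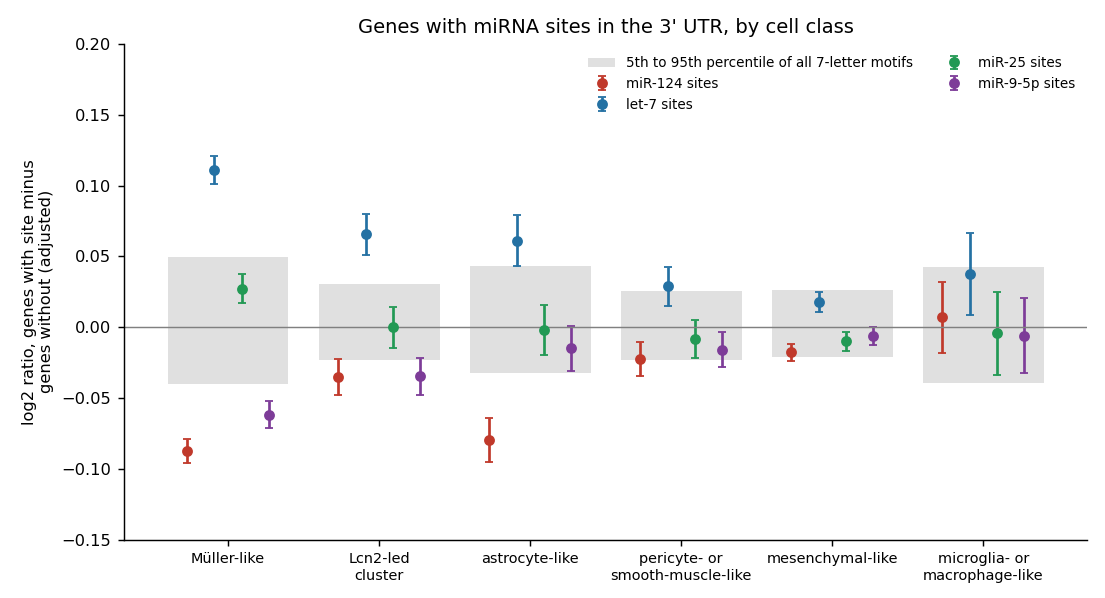
Difference in log2 ratio between genes with and without a site of each miRNA, in any form, in 6 sets of cells. Differences are adjusted for UTR length, UTR GC and mean expression, and bars are 95% counting intervals. Grey boxes run from the 5th to the 95th percentile of all single motifs of 7 letters, which is not the same measure as the points. miR-124 sites lie below the box and let-7 sites above it in Müller-like (-0.087 and 0.11), Lcn2-led (-0.035 and 0.066) and astrocyte-like cells (-0.080 and 0.061). miR-9-5p sites also lie below the box in Müller-like (-0.062) and Lcn2-led cells (-0.035), and let-7 sites above it in pericyte- or smooth-muscle-like cells (0.029).

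The genes whose sites are printed were lower in each of the 4 largest classes by the way they were chosen. Ptbp1 stood at 30.5 CPM under the miR-124 label against 49.8 CPM in control mesenchymal-like cells, 29.0 CPM under the miR-124 label against 34.6 CPM in control astrocyte-like cells and 57.4 CPM under the miR-124 label against 74.1 CPM in control pericyte- or smooth-muscle-like cells. Vat1, a vesicle membrane protein, stood at 31.2 CPM under the miR-124 label against 48.1 CPM in control Müller-like cells and 44.6 CPM under the miR-124 label against 73.8 CPM in control mesenchymal-like cells. Myh9, the heavy chain of non-muscle myosin, stood at 106 CPM under the miR-124 label against 165 CPM in control Müller-like cells and 175 CPM under the miR-124 label against 225 CPM in control mesenchymal-like cells. Zcchc24 and Fam104a had log2 ratios between -0.47 and -0.21 in the 4 classes.

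In mesenchymal-like cells 20 of 6087 genes (0.329%) reached 2-fold on the high side and 13 (0.214%) on the low side. The genes named next were chosen after their values were seen, as the most extreme. Chodl, a membrane lectin, stood at 98.7 CPM under the miR-124 label against 11.3 CPM in the control. Fxyd6, a regulator of the sodium pump, stood at 54.7 CPM under the miR-124 label against 4.95 CPM in the control. Penk, the enkephalin precursor, stood at 141 CPM under the miR-124 label against 20.9 CPM in the control. Ednrb, an endothelin receptor, had 48.7 CPM under the miR-124 label against 10.8 CPM in the control. Among lower genes, Cldn11, a tight junction claudin, stood at 9.27 CPM under the miR-124 label against 34.2 CPM in the control. Il1rn, the interleukin 1 receptor antagonist, stood at 70.6 CPM under the miR-124 label against 202 CPM in the control. H19, an imprinted non-coding RNA, stood at 404 CPM under the miR-124 label against 1028 CPM in the control. Kitl, the ligand of the receptor Kit, had 81.4 CPM under the miR-124 label against 194 CPM in the control. At a Leiden resolution of 1.0 the class fell into several clusters, of which a cluster led by Mgp and Cxcl12 held 423 cells in the miR-124-labelled library and 1391 in the control, and one led by Cthrc1 held 607 cells under the miR-124 label and 374 in the control. By the lists, these cells lay near the median of all genes, 0.02, with 1.97% of genes at least 1.5-fold higher and 1.23% lower. Immediate early genes had a median of -0.12, where Müller-like cells had 0.65, and 14 cholesterol synthesis genes had 0.34, with 0 at 1.5-fold. Glial genes were counted in these cells too, with Gfap at 22.2 CPM under the miR-124 label against 4.95 CPM in the control. Rlbp1, below 20 CPM in both libraries, had 15.2 CPM under the miR-124 label against 2.95 CPM in the control. The part of RNA from other cells in these levels was not tested.

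Astrocyte-like cells, 315 under the miR-124 label and 277 in the control, had 115 of 6456 genes (1.78%) at 2-fold or more on the high side and 51 (0.79%) on the low side, and 8.33% and 5.07% at 1.5-fold. Of 16 Müller glia homeostasis genes 12 were at least 1.5-fold higher, with 0 lower and a median of 1.09 against 0.07 for all genes. Rlbp1 stood at 47.1 CPM under the miR-124 label against 3.60 CPM in the control, Aldoc at 266 CPM under the miR-124 label against 56.2 CPM in the control and Ndrg2, a cytoplasmic protein of astroglia, at 106 CPM under the miR-124 label against 24.5 CPM in the control. Gfap was at 1466 CPM under the miR-124 label against 1355 CPM in the control, a log2 ratio of 0.11 where Müller-like cells had 3.01. The summed level of the 20 Müller glia markers in astrocyte-like cells was 5212 CPM under the miR-124 label against 3985 CPM in the control, and that of the 10 astrocyte markers 2604 CPM under the miR-124 label against 2130 CPM in the control, with Cldn10 at 0 in both. In Müller-like cells the astrocyte markers summed to 614 CPM under the miR-124 label against 153 CPM in the control, of which Gfap alone gave 506 CPM under the miR-124 label against 58.4 CPM in the control. Whether Müller glia RNA or cells in this cluster account for the higher genes was not tested. In pericyte- or smooth-muscle-like cells 12 of 6270 genes (0.191%) reached 2-fold on the high side and 18 (0.287%) on the low side, and 1.79% and 2.23% reached 1.5-fold. Of 28 literature targets 0 did so in either direction, and 3 of 17 immediate early genes were higher.

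Microglia- or macrophage-like cells, 106 under the miR-124 label and 123 in the control, had 74 of 5625 genes (1.32%) at 2-fold or more on the high side and 133 (2.36%) on the low side, and 6.93% and 10.2% at 1.5-fold. Igfbp2 had 13 UMIs (27.7 CPM) under the miR-124 label and 86 UMIs (111 CPM) in the control. Igfbp5, of the same family, had 44 UMIs (93.6 CPM) under the miR-124 label and 164 UMIs (212 CPM) in the control. Actin and adhesion genes had 10 of 19 at least 1.5-fold lower and 1 higher. Acta2, a smooth muscle actin that microglia are not known for, stood at 298 CPM under the miR-124 label against 975 CPM in the control, and the part of RNA from other cells in these differences was not tested.

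An unnamed cluster led by Npvf and Grem1, with only 2 Müller glia markers, held 96 cells under the miR-124 label and 303 in the control. Of its 6497 genes 1.43% reached 2-fold on the high side and 1.91% on the low side, and 7.74% and 8.27% reached 1.5-fold. Interferon response genes had a median of 0.49 there, with 5 of 10 at least 1.5-fold higher and 0 lower. Fewer of them were measured in Müller-like cells, where the median was -0.88, so these medians cover different genes. Isg15, a ubiquitin-like protein induced by interferon, had 43 UMIs (121 CPM) under the miR-124 label and 16 UMIs (10.4 CPM) in the control. Ifit3, another interferon-induced gene, had 20 UMIs (56.2 CPM) under the miR-124 label and 18 UMIs (11.7 CPM) in the control. Isg15 and Ifit3 passed the limit of 20 CPM only through the miR-124-labelled library, so the count and the median there lean to the high side. Bst2, a tether of budding virus, stood at 118 CPM under the miR-124 label against 143 CPM in the control, with an interval of the fold that holds 1.

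Genes that went the same way in Müller-like, mesenchymal-like, astrocyte-like and pericyte- or smooth-muscle-like cells were sought over 4729 genes measured in all 4. Ratios were above 0 in every class for 779 (16.5%) and below 0 for 506 (10.7%), and at least 1.5-fold in every class for 4 higher (0.0846%) and 3 lower genes (0.0634%). These classes come from the same 2 libraries and share their free RNA, so they are not repeats of one another.

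Metallothioneins, which bind zinc and copper and buffer oxidative stress, were lower in each class. Mt1 stood at 7739 CPM under the miR-124 label against 12231 CPM in control Müller-like cells, 478 CPM under the miR-124 label against 899 CPM in control mesenchymal-like cells, 1619 CPM under the miR-124 label against 2908 CPM in control astrocyte-like cells and 481 CPM under the miR-124 label against 984 CPM in control pericyte- or smooth-muscle-like cells. Mt2 and Mt3 had log2 ratios from -1.16 to -0.51 in the 4 classes. S1pr3, a sphingosine 1-phosphate receptor, was at 487 CPM under the miR-124 label against 893 CPM in control Müller-like cells and 24.2 CPM under the miR-124 label against 87.6 CPM in control pericyte- or smooth-muscle-like cells. Iscu, an iron-sulfur cluster scaffold, Phlda3, Crispld2, Aebp1, Nenf and Sdc4 were the other genes lowest in all 4.

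The highest in all 4 was Ptn, pleiotrophin, a secreted growth factor, at 46.8 CPM under the miR-124 label against 14.98 CPM in control Müller-like cells, 33.5 CPM under the miR-124 label against 15.7 CPM in control mesenchymal-like cells, 1540 CPM under the miR-124 label against 304 CPM in control astrocyte-like cells and 25.3 CPM under the miR-124 label against 11.2 CPM in control pericyte- or smooth-muscle-like cells. Among these classes its level was highest in astrocyte-like cells of each library. Clu, the secreted chaperone clusterin, and Apoe, the lipid carrier, had log2 ratios from 0.66 to 1.53 and from 0.49 to 1.58. Acyp2, an acylphosphatase, Tspan7, a tetraspanin, Pfn2, an actin-binding profilin, Slc25a4, the mitochondrial ADP/ATP carrier, Klf4, Eef1e1 and Gadd45b were the other genes. Ptn, Clu and Apoe are abundant in glia, and their part as free RNA in the other classes was not tested.

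**Figure D5:**
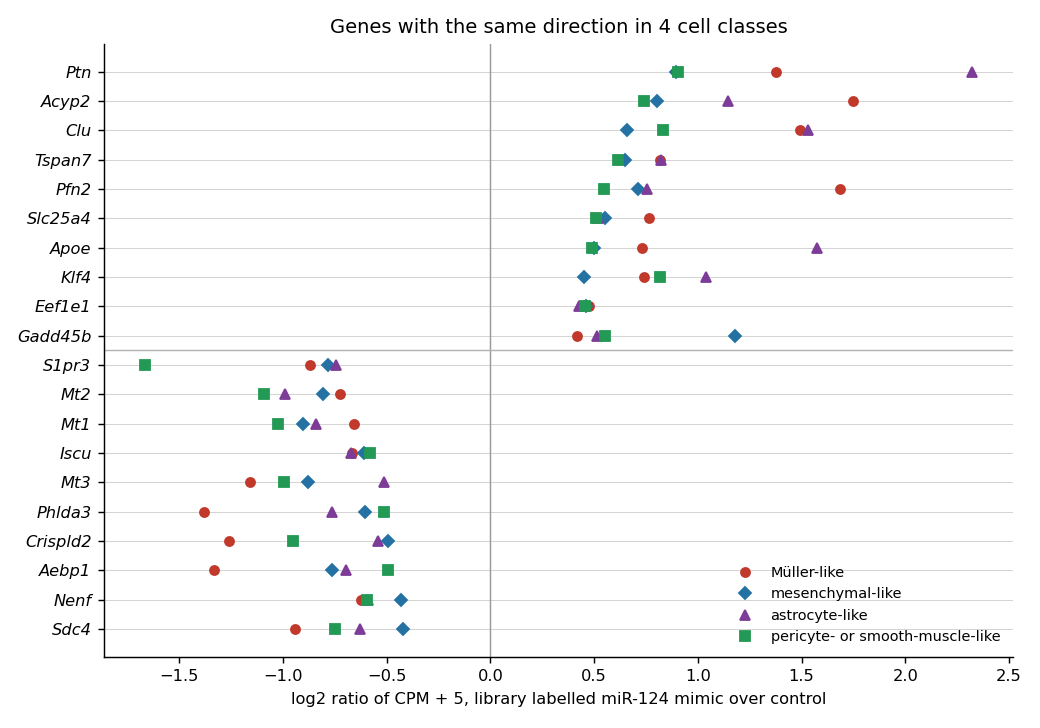
Log2 ratio (CPM + 5, miR-124-labelled library over control) of the 10 genes highest and the 10 lowest in all 4 classes, with 1 symbol per class. Mt1 and Mt2 lie between -1.09 and -0.66 in each class, and Ptn between 0.89 and 2.32.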

How the data were processed

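Libraries came from the 10x V2 chemistry. The deposited values are UMI counts, not normalised, in 1 sparse matrix per library. The submitters' processing notes name Cell Ranger 2, Seurat 2 and mm10, with no role given. The matrix of the double combination could be read only in part (3014 of 5141 barcodes), which bears on the clustering alone.

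The filter was 500 or more genes and no more than 10% mitochondrial UMIs per cell. Log-normalised counts of 2000 variable genes gave 30 principal components, 15 neighbours and Leiden clusters at resolution 0.6 (scanpy 1.11.5, igraph 0.11.9), with no integration. A cluster was named from at least 3 markers at 2-fold or more over the median cluster. The mean log2 fold of the marker list also had to reach 0.5 and 1.15 times that of the second list. No other list could hold more of the 10 leading genes of the cluster. These thresholds were set after the clusters were seen. One mesenchymal-like cluster, called mixed here, ranked second for Müller glia, but with only 1 Müller glia marker at 2-fold or more (77 cells under the miR-124 label, 112 in the control). No doublets were removed, because the Scrublet caller marked 3.06% of the miR-124-labelled library and 0.111% of the control, where it did not work. UMIs were summed per class, scaled to CPM and compared as log2 ratios of CPM + 5, in genes with at least 20 CPM in either library. Levels have exact Poisson, folds exact conditional and shares exact Clopper-Pearson intervals (scipy 1.17.1). UTRs were the longest of each gene.

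Genes were named by rule: the 12 highest and lowest in Müller-like cells, the 10 in all 4 classes, the 4 in the Lcn2-led cluster, the 2 of each list, the 6 with printed sites and 25 fixed genes. Some genes that the rule names are not reported here. The members, the lists and these rules were chosen with earlier results of these data known. The scripts were tested on simulated data.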

Additional observations from a re-analysis of the deposited data

Results flagged for a closer look

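Wisp2, a secreted matricellular protein of the CCN family, had opposite ratios in 2 classes. In mesenchymal-like cells it stood at 132 CPM (842 UMIs) in the miR-124-labelled library and 56.7 CPM (654 UMIs) in the control, a log2 ratio of 1.153. In Müller-like cells it had 8.57 CPM (28 UMIs) in the miR-124-labelled library and 23.0 CPM (89 UMIs) in the control, a log2 ratio of -1.044. Astrocyte-like and pericyte- or smooth-muscle-like cells had 0.50 and 0.82. The difference between the classes was not tested.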

How the results depend on the processing

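No paired analysis was possible because each treatment has 1 library, and leaving out a replicate was not possible for the same reason. Of 1560 values of named genes under the alternatives, 7 changed sign. With limits of 1000 genes and 5% mitochondrial UMIs per cell, where 83 Müller-like cells were left under the miR-124 label and 74 in the control, the log2 ratios in that class were -0.32 for Cd24a, -0.58 for Cdkn1c, -0.30 for Dicer1, -0.18 for Rgs3 and 0.090 for Sfrp1, and without the Rlbp1-led cluster -0.087 for Cdkn1c and -0.33 for Rgs3. Each setting changes the genes measured, so the counts that follow are not shares of one set of genes. Among Müller-like genes at 2-fold or more, 112 were higher at 50 CPM or more. Under the strict cell limits 461 were higher and 430 lower, and without the Rlbp1-led cluster 25 and 12. In the Lcn2-led cluster 31 were lower with a pseudocount of 1, 15 higher and 7 lower at 50 CPM or more, and 42 and 44 with no level filter. Mesenchymal-like cells had 13 and 8 at 50 CPM or more and 31 higher with no level filter. Over all kept cells 44 were higher at 50 CPM or more, and 20 higher and 6 lower under the strict cell limits. The difference for miR-124 sites in Müller-like cells was -0.138 for the 8-letter site, -0.0972 with a pseudocount of 1, -0.106 at 50 CPM or more, -0.0623 with no level filter, -0.0596 under the strict cell limits, -0.0735 with the Grem1 cluster counted in and -0.0343 without the Rlbp1-led cluster. In mesenchymal-like cells the 8-letter site gave 0.0089. Lists shifted from all genes by 0.5 or more numbered 10, against 6 with no level filter, 5 under the strict cell limits and 1 without the Rlbp1-led cluster. Under the strict cell limits the shares were 4.13% (miR-124 label) and 2.76% (control) Müller-like, 60.7% (miR-124 label) and 69.3% (control) mesenchymal-like, 12.05% (miR-124 label) and 8.66% (control) astrocyte-like, and 1.74% (miR-124 label) and 0.112% (control) neuron- or progenitor-like. At resolution 0.3 they were 38.97% (miR-124 label) and 29.97% (control) Müller-like, with 1.67% (miR-124 label) and 0.0221% (control) neuron- or progenitor-like. At resolution 1.0 they were 30.1% (miR-124 label) and 17.6% (control) Müller-like and 38.6% (miR-124 label) and 52.8% (control) mesenchymal-like, with 0.111% of the control neuron- or progenitor-like. Clusters from these 2 libraries alone gave 43.2% (miR-124 label) and 32.5% (control) Müller-like, 34.3% (miR-124 label) and 47.0% (control) mesenchymal-like, and 0% (miR-124 label) and 0% (control) neuron- or progenitor-like. With the Grem1 cluster the Müller-like shares were 34.8% (miR-124 label) and 29.3% (control). The alternatives on the Grem1, Rlbp1-led and mixed mesenchymal-like clusters were chosen after seeing the data. The cause of these shifts was not tested.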
